A study of Mustela putorius furo with 8 samples.

Results

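WT centroacinar progenitors are cells of wild-type ferret pancreatic duct cultures that the authors' cell table gives the class centroacinar progenitor. Every retained cell with that class name in a WT cluster was taken, which gave 4192 of the 21600 WT cells (19.4%) and 8 of the 41 WT clusters. The whole series held 32945 retained cells. Centroacinar cells sit where an acinus opens into the smallest duct, and they are known for Notch activity and for high aldehyde dehydrogenase activity. A progenitor of this kind is thought of as a cell near the duct end that has not settled on a duct or an acinar fate. Mucins, trefoil peptides and tetraspanins, which the study used among its markers, are products of the apical surface of many glandular epithelia.

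Ductal structures had been isolated from pancreata of newborn WT ferrets 1 to 3 days old, expanded for 10 passages and seeded on 804G-coated permeable inserts. They were sampled on day 2, 5, 7 and 9 at an air-liquid interface, with 1 droplet library for each day, and cells of several donors were pooled without a donor label for any cell. No spread between animals or cultures can therefore be computed, and every interval below is a 95% interval for counting error only. The other 4 libraries came from CF ferrets, in which the CFTR channel is lost, on the same days and with the same culture steps, and they are used here only for values set side by side.

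The share of WT cells in the class was 11.5% on day 2 (714 of 6224 cells, exact Clopper-Pearson interval 10.7% to 12.3%). It was 21.6% on day 5 (1148 of 5326 cells, 20.5% to 22.7%) and 30.9% on day 7 (1430 of 4634 cells, 29.5% to 32.2%). On day 9 it was 16.6% (900 of 5416 cells, 15.6% to 17.6%). The share was thus highest on day 7 and the 4 intervals did not overlap. Without cluster 1, which is taken up below, the shares were 11.4%, 11.1%, 22.6% and 14.2%, so that day 5 was no longer above day 2. Counting only clusters with a progenitor marker among their leading genes (10, 18 and 32), they were 0.289%, 8.49%, 15.6% and 5.85%, with day 7 still the highest. The makeup of the other WT cells moved over the same days, from 29 centroacinar and 4452 ductal cells on day 2 to 2361 and 2152 on day 9.

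The 8 clusters divided the class by day. Cluster 13 held 682 of the 714 progenitors of day 2 and 11 cells of the later days, so the progenitors of day 2 are nearly all that cluster. Cluster 1 (555, 383 and 131 cells on day 5, 7 and 9) and cluster 10 (292, 320 and 145 cells) made up most of the class on day 5. Day 7 added cluster 18 (347 cells, after 117 on day 5) and cluster 24 (274 cells, after 82 on day 5). Cluster 21 held 418 of the 900 progenitors of day 9 and 56 and 33 cells of day 5 and 7. Cluster 32 was small on all 4 days (14, 43, 55 and 57 cells), and cluster 40 held 29 cells, all of day 7 and 9.

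**Figure D1:**
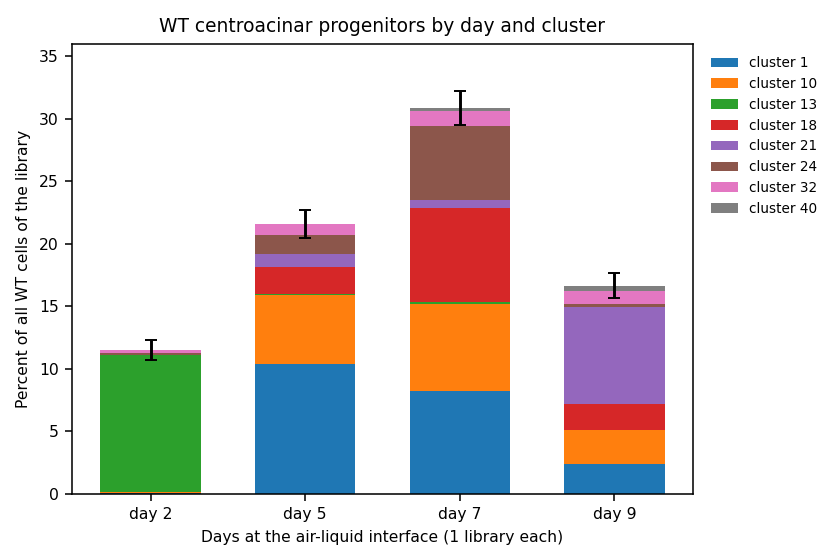
Percent of all WT cells of each library (y axis) that are centroacinar progenitors, by day at the air-liquid interface (x axis), with the bar divided by the authors' cluster. Error bars are exact 95% Clopper-Pearson intervals of the whole bar, which runs from 11.5% on day 2 to 30.9% on day 7, and day 2 is almost wholly cluster 13.

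Progenitors held more UMIs per cell than the other WT cells on day 2 and 5 and slightly fewer on day 7 and 9. The median was 19626, 17916, 15716 and 14770 UMIs per progenitor on day 2, 5, 7 and 9, against 15929, 16441, 16006 and 15009 in the other WT cells. The median share of mitochondrial UMIs was 10.3%, 8.36%, 13.7% and 10.0% in progenitors and 9.10%, 6.29%, 9.74% and 10.3% in the others. The part of depth and of the mitochondrial share in the differences below was not tested. Progenitor sums held from 14064124 UMIs on day 9 to 23918599 on day 7. Between 6 and 14 cell barcodes were shared by any 2 WT libraries. Cluster 40 stood apart, with a median of 49263 UMIs per cell, 3.29 and 3.02 times the library medians of day 7 and 9, and 4.59% mitochondrial UMIs. Whether its 29 cells are doublets was not tested, and the authors had already removed called doublets.

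The class name was checked against its markers. Among the 10 genes that stood highest over the other WT clusters, clusters 10, 18 and 32 each had a progenitor marker of the study (MUC13 in cluster 10, MUC5B and TFF3 in cluster 18, TFF3 in cluster 32). Cluster 1 had none and had S100A4, which the study lists for centroacinar cells. S100A4 was, however, higher in progenitors than in WT centroacinar cells on day 5, 7 and 9, with ratios of 2.07, 3.14 and 1.22. Cluster 1 also had the highest MUC1 and MUC13 levels of the 8 clusters, at 2249 and 365 CPM. Its leading genes thus do not bear out its class name, while these marker levels go with it. The shares by day and the 4-day gene counts are also given without cluster 1. Clusters 13, 21, 24 and 40 had no marker of any class among their 10 leading genes. The check by leading genes does not rank clusters by marker level. MUC13 was at 296 CPM in cluster 10, below clusters 1, 18 and 21 (365, 363 and 315 CPM). Cluster 32 had the lowest ALDH1A1, BCL2A1 and TSPAN8 of the 8 clusters, at 308, 87.2 and 84.3 CPM.

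The 7 markers given for the class were read first. Because the authors formed the clusters from these same cells and named them from expression, the differences below describe the class and are no test of it. Levels are UMI counts summed over the cells of a day, divided by the UMI total of those cells and scaled to CPM, and differences are log2 of CPM plus 1, progenitors minus all other WT cells of the same library.

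ALDH1A1 is the aldehyde dehydrogenase that makes retinoic acid from retinal. Its level in progenitors was 455, 461, 562 and 489 CPM on day 2, 5, 7 and 9. In the other WT cells it was 122, 125, 164 and 279 CPM. Progenitors were higher on each day, and the gap was narrowest on day 9, when the level of the other cells was highest and that of the progenitors was near its earlier values. The ratio was 3.74 (95% interval 3.63 to 3.85) on day 2 and 1.75 (95% interval 1.71 to 1.8) on day 9. BCL2A1, a BCL2 relative that protects cells from apoptosis, was at 129, 124, 108 and 126 CPM in progenitors and 39.3, 31.8, 43.7 and 75.9 CPM in the others. Its differences were 1.69, 1.93, 1.29 and 0.72, with the same narrowing on day 9.

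KLF4, a zinc-finger factor of epithelial differentiation that is also used to reprogram cells, was at 108, 95, 96.7 and 84.5 CPM in progenitors and 46.3, 21.9, 23.8 and 46.3 CPM in the other WT cells. Its ratio was highest on day 5, at 4.34 (95% interval 4.07 to 4.63). The level in progenitors was highest on day 2 and lowest on day 9, while that of the other cells was low on day 5 and 7 and the same on day 2 and 9. KLF5, the related factor of the same list, was at 947, 774, 922 and 812 CPM in progenitors and 836, 618, 631 and 667 CPM in the others, under 2-fold apart on every day.

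TFF3, a trefoil peptide secreted with mucus, moved more with time than any other marker. In progenitors it went from 1.44 CPM (22 UMIs) on day 2 to 70.5, 306 and 814 CPM on day 5, 7 and 9. The other WT cells followed at a lower level, with 0.353, 29.3, 48.7 and 285 CPM. Thinned to 3000 UMIs per cell, 0.56, 6.82, 18.5 and 26.8% of progenitors had a TFF3 UMI on the 4 days, against 0.0914, 5.72, 5.42 and 11.4% of WT ductal cells, so the intervals of the shares overlapped on day 2 and 5 and were apart on day 7 and 9. Without thinning the shares were 1.4, 15.5, 34.1 and 46.4% and 0.517, 17.3, 17.1 and 22.2%, at the class median depths given above and at 14965, 15898, 15567 and 14547 UMIs in ductal cells, and on day 5 the unthinned share was the lower one in progenitors. Cells under 3000 UMIs, 0, 5, 5 and 2 progenitors and 78, 126, 43 and 58 ductal cells, were left out of the thinned shares.

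The other 3 markers are proteins of the cell surface. TSPAN8, a tetraspanin of glandular cell surfaces, was at 124, 125, 124 and 142 CPM in progenitors and 55.6, 50.1, 33.1 and 68.6 CPM in the other WT cells. MUC1, a membrane mucin of the apical surface, was at 1707, 1998, 1677 and 1889 CPM against 223, 299, 337 and 1070.4 CPM, and its ratio went from 7.64 (95% interval 7.51 to 7.78) on day 2 to 1.76 (95% interval 1.74 to 1.79) on day 9. MUC13, another membrane mucin, was at 91.6, 287, 312 and 306 CPM against 3.97, 22.5, 31.1 and 131 CPM. It had the largest differences of the 7 markers over all other WT cells on day 2, 5 and 7, and on day 9 TFF3 had the largest. After thinning, a MUC13 UMI was seen in 21.4, 56.4, 59.3 and 58.4% of progenitors and in 1.05, 0.711, 1.08 and 1.24% of ductal cells. MUC1 was seen in 97.6, 98.8, 97.5 and 97.7% of progenitors and 36.4, 23.7, 25.6 and 31.7% of ductal cells. Thinned ALDH1A1 shares were 70.0, 70.8, 73.6 and 72.3% of progenitors and 28, 25.7, 32.5 and 31.6% of ductal cells. Unthinned, MUC13 stood at 75.4, 94.5, 92.7 and 95.2% and 5.14, 3.54, 5.66 and 6.37%, MUC1 at 99.9% on day 2, 5 and 7 and in every progenitor on day 9 against 74.2, 57.4, 60.3 and 57%, and ALDH1A1 at 99.3, 98.8, 98.8 and 98.3% and 71.9, 73.3, 79.4 and 77.3%.

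At that fixed depth a progenitor showed on average 2.92, 3.13, 3.25 and 3.42 of the 7 markers on day 2, 5, 7 and 9, and a ductal cell 1.07, 0.75, 0.83 and 0.98. Centroacinar cells lay between, at 2.24, 1.99 and 3.05 on day 5, 7 and 9. Progenitors with none of the 7 made up at most 0.42% of the class on any day, whereas 33.7% to 45.2% of ductal cells had none. By number of markers per cell, then, centroacinar cells of day 9 were closer to progenitors than those of day 5 and 7.

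In the ferret assembly ASM1176430v1.1, with positions on sequences whose chromosome the annotation table does not name, the 7 protein-coding genes span ALDH1A1 10441774 to 10494355, BCL2A1 1526978 to 1534882, KLF4 11409857 to 11414632 and TFF3 3361502 to 3364451. TSPAN8 spans 45183845 to 45214931, MUC1 5302524 to 5308956 and MUC13 97743910 to 97774701.

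**Figure D2:**
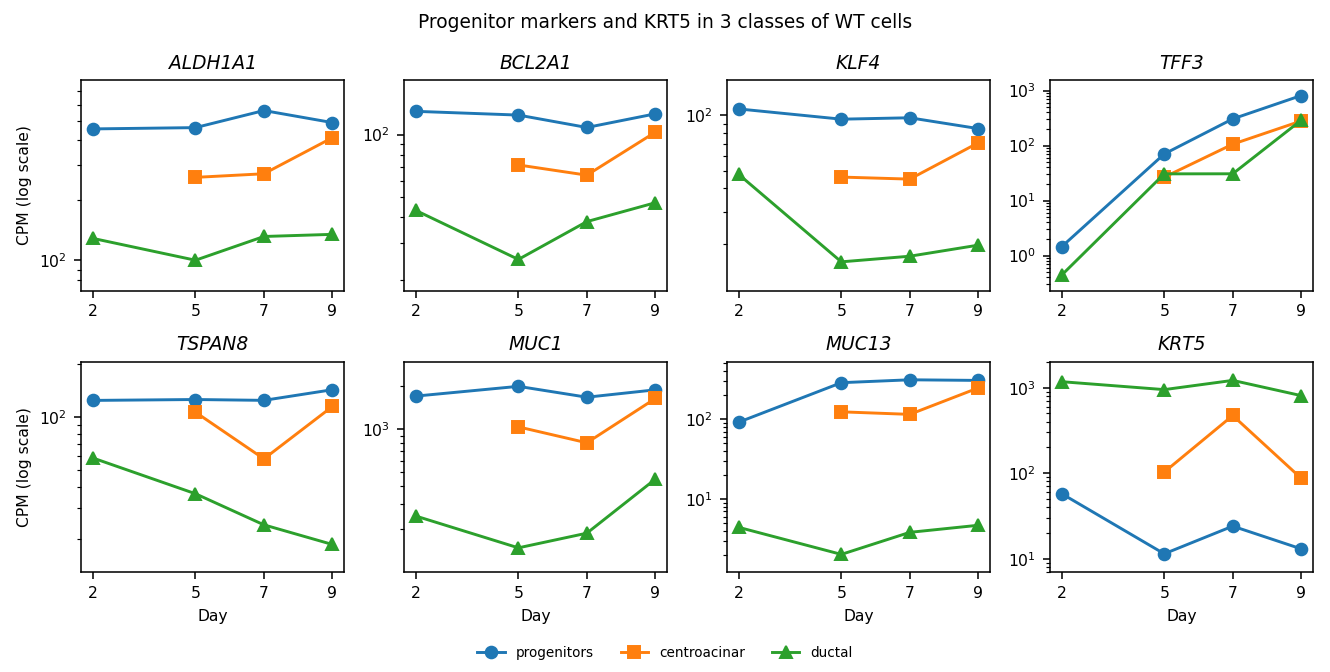
Level in CPM on a log scale (y axis, a range of its own in each panel) by day (x axis) of the 7 progenitor markers and KRT5, in WT progenitors, WT centroacinar cells (from day 5, since day 2 has 29 such cells) and WT ductal cells. Each point is 1 library, with no error over animals. The 7 markers are highest in progenitors on every day, and KRT5 is lowest there.

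Set against WT centroacinar cells alone, the 7 markers were higher in progenitors by 0.82, 1.05 and 0.25 for ALDH1A1, 0.79, 0.75 and 0.29 for BCL2A1 and 1.03, 1.09 and 0.25 for KLF4 on day 5, 7 and 9. The same log2 differences were 0.24, 1.09 and 0.31 for TSPAN8, 0.94, 1.06 and 0.20 for MUC1 and 1.21, 1.43 and 0.31 for MUC13. TFF3 was at 1.37, 1.52 and 1.53, and it and TSPAN8 did not narrow between day 5 and day 9. TFF3 was uneven within the class, at 1330 and 1342 CPM in clusters 18 and 32 and 24.8 CPM in cluster 1 over all days. On day 9 the other 6 markers thus stood at most 0.31 above centroacinar cells on the log2 scale. Over the genes compared, Pearson's correlation of log2 levels between progenitors and centroacinar cells was 0.96, 0.94 and 0.98 on day 5, 7 and 9, and that with ductal cells 0.78, 0.83 and 0.83. These correlations are across genes, which are not independent, and each pair of sums shares 1 library.

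Over all genes, 8621 reached 10 CPM in progenitors or in the other WT cells on at least 1 day. Of these, 102 (1.18%) were at least 2-fold higher in progenitors on all 4 days and 401 (4.65%) at least 2-fold lower. Since the classes were built from these genes, the counts describe their size only. They were 350 and 643 without day 9 and 60 and 209 with a pseudocount of 5 CPM. By day, 505, 668, 525 and 145 genes were higher past 2-fold and 844, 1103, 1015 and 601 lower, so the number of higher genes was smallest on day 9. Without cluster 1 the 4-day counts were 84 and 382, of which 82 and 380 were among those of the whole class. The median difference of all genes compared was -0.16, and scaling by the trimmed mean of M values (TMM) moved it to 0.03, which left 172 genes higher and 323 lower. The share of higher genes among those past the fold was 20.3% with CPM, 34.7% with TMM and 35.2% with DESeq2 size factors. SOX2, a factor of foregut epithelia, was below 10 CPM in 12 of the 41 WT clusters, none of them in the class. Against the other WT cells without those 12 clusters, 38 genes were higher and 313 lower.

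Among genes past 2-fold on all 4 days and at 50 CPM or more in progenitors on a day, the 10 with the highest median difference began with LOC101676065, a protein-coding locus without a given name, at 259.7, 621, 496 and 581 CPM against 4.9, 28.4, 37 and 197 CPM. LYPD2, a small protein of the Ly6 family of surface-anchored proteins, was at 240.0, 1072, 1558 and 1644 CPM against 6.72, 60.8, 115 and 601 CPM, the highest level of the 10 on day 9. S100A4, a calcium-binding protein, was at 61, 587, 358 and 535 CPM against 1.45, 51.9, 32.5 and 237 CPM. It is 1 of the centroacinar markers of the study, and so the class named progenitor exceeded all other WT cells in a marker of another class. UPK1A, a uroplakin of the umbrella cells of the bladder, was at 128, 372, 258 and 284 CPM against 2.55, 27, 30.9 and 101 CPM. The others of the 10 were CUNH15orf48 (3.78), MUC13 (3.45), MUC4 (3.20), DUOXA2 (3.10), which matures the dual oxidase DUOX2, and the noncoding LOC106005313 (3.56) and LOC101677064 (3.41), each with its median log2 difference over the 4 days.

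Among genes past 2-fold on all 4 days, with 50 CPM or more in the other WT cells on a day, the lowest were led by KRT5, the keratin of basal epithelial cells, at 57.7, 11.4, 24 and 13 CPM in progenitors against 1234, 786, 1029 and 434 CPM in the other WT cells. SNAI2, a repressor tied to basal and migratory states, was at 4.25, 1.33, 2.55 and 1.56 CPM against 49.2, 74.5, 74.9 and 44.4 CPM. SPARC, a secreted protein of the matrix, was not seen in progenitors on day 2, where 3 UMIs would be 0.196 CPM, and was at 4.01, 4.64 and 7.61 CPM later, against 1.78, 199.9, 172 and 197 CPM. On day 2 SPARC was near 0 outside the class as well, and it was apart from day 5 on. CALD1 (-5.17) and TAGLN (-4.91) had medians as low but were within 2-fold on day 2. FST, the activin antagonist follistatin, had a median difference of -4.84, COL18A1, a collagen of basement membranes, -4.85, and PDPN, the surface glycoprotein podoplanin, -4.21. NRN1 (-4.31), LOC101679740 (-4.92) and LOC101679442 (-4.69) were also among them. After thinning, a KRT5 UMI was found in 11.8, 3.15, 5.33 and 2.67% of progenitors and in 77.7, 87.2, 84.2 and 70.1% of ductal cells (unthinned 42.3, 17.4, 18.3 and 10.2% and 88.5, 96.4, 92.8 and 80.3%).

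Against WT centroacinar cells, 8023 genes were compared on day 5, 7 and 9. Progenitors were at least 2-fold higher on all 3 days in 12 genes (0.15%) and lower in 135 (1.68%). The 12 were CLDN3, CUNH15orf48, CLDN18, RGCC, TFF3, TM4SF5, CLCA1, DUOXA2, LOC101670362, LOC101683501, LOC101676319 and LOC123391853. Within the class, most UMIs of LOC101670362 and LOC101683501 lay in cluster 21, and most of those of TFF3 and CLCA1 in clusters 18 and 32. CLDN3 and CLDN18 are tight junction claudins, and CLDN18 was at 41.5, 34.2 and 42.9 CPM in progenitors and 9.37, 8.96 and 17.9 CPM in centroacinar cells on the 3 days. CLCA1, a secreted protein of goblet cells, was at 11.7, 30.4 and 66 CPM against 4.5, 6.69 and 25 CPM. The largest differences the other way were those of ECRG4 (-5.68, -5.17 and -2.27), CALD1 (-4.30, -4.30 and -2.89), an actin-binding protein, and NRN1. TFF2, a trefoil peptide like TFF3, was lower in progenitors, with differences of -5.72, -3.86 and -1.94, so TFF2 and TFF3 lay on opposite sides. Over the 3 trefoils compared, TFF1 included, the medians were -1.67, -2.49 and -0.41. Set against all other WT cells, TFF1 was lower in progenitors on those days, at -1.08, -2.95 and -2.05. SPP1, the secreted phosphoprotein osteopontin, was at 5.63, 6.69 and 9.46 CPM against 153, 107 and 66.9 CPM. Clusterin (CLU), a secreted chaperone, was at 149.6, 137 and 488 CPM against 1647, 1564 and 1583 CPM. MAL and TAGLN were also among the lowest.

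Against WT ductal cells, 8668 genes were compared on 4 days, with 322 (3.71%) at least 2-fold higher and 518 (5.98%) lower in progenitors on every day. Of the 102 genes higher than all other WT cells, 99 were in the first set, and 7 were among the 12 higher than centroacinar cells. Of the 401 lower genes, 391 were also lower than in ductal cells and 110 lower than in centroacinar cells. Ductal cells made up 12175 of the 17408 other WT cells, so the overlap with the ductal sets is largely built in. MUC13 had 4.41, 2.02, 3.81 and 4.68 CPM in ductal cells on the 4 days and 124, 115 and 247 CPM in centroacinar cells on day 5, 7 and 9.

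Gene lists were then described by the number of members past 2-fold on all 4 days, beside the 1.18% and 4.65% of all genes. The lists of progenitor markers were chosen by the study on these samples and are no independent evidence. Of the 7 markers, TSPAN8 and MUC13 were past 2-fold on every day and the other 5 fell short of it on day 9 or, for TFF3, on day 2. Of the 8 further progenitor markers of the study 4 were in the files, and MUC4 was higher on all days.

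Membrane mucins, which form the glycocalyx, were the list with the highest median on day 2 and 7, with 3.40, 3.04, 2.68 and 0.93 on day 2, 5, 7 and 9 over the 4 of 10 compared. Those 4 (MUC13, MUC4, MUC1 and MUC16) are all progenitor markers of the study, as are MUC5AC and MUC5B below. These lists are therefore no independent evidence either. MUC4 was at 115, 187, 209.8 and 183 CPM in progenitors and 6.93, 17.5, 24.3 and 87.7 CPM in the other WT cells. MUC16 was at 278, 387, 305 and 396 CPM and 51.7, 85.1, 79.7 and 322 CPM, and its difference fell to 0.30 on day 9. Gel-forming mucins came later. MUC5AC was at 1.77, 46.5, 52.3 and 136 CPM and MUC5B at 1.05, 43.3, 90.2 and 107 CPM in progenitors, against 0.0302, 3.79, 10.7 and 124 CPM and 0.0302, 4.26, 13 and 46.3 CPM in the others. The gap in MUC5AC was thus wide on day 5 and had nearly closed by day 9.

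The mucous secretory program, the factors and enzymes of mucin-making cells, had 11 of 25 genes compared and 1 higher on all days. That was SPDEF, the factor that drives goblet cell maturation, at 30.3, 40.7, 45.7 and 29.5 CPM against 0.604, 2.32, 5.52 and 12.9 CPM. GALNT5 and ST6GALNAC1, which start and cap mucin sugars, had median differences of 2.45 and 1.83, and CLCA1 2.36. Umbrella-like surface genes had 4 of 8 compared members higher (UPK1A, UPK2, PSCA and TSPAN8, which is also a marker of the class) and medians of 1.06, 1.43, 1.24 and 1.11. UPK3B, a further uroplakin, was at 87.3, 110.2, 98.7 and 106 CPM against 43.8, 21.2, 21.8 and 44.2 CPM. PSCA, a glycolipid-anchored surface antigen, was at 73.3, 172, 163 and 268 CPM against 20.7, 36.7, 61.3 and 118 CPM. Against centroacinar cells, none of 7 compared umbrella-like genes and none of 4 membrane mucins was past 2-fold on day 5, 7 and 9, with medians of 0.24, 0.65 and 0.31 and of 0.95, 1.14 and 0.18, and 1 of 10 mucous program genes, CLCA1, was higher.

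Among tight and adherens junction genes, 2 of 15 compared were higher (CLDN18, at a median of 3.28, and CLDN3, at 2.42) and none lower, with medians of 1.06, 0.76, 0.55 and 0.06. Of the dual oxidases and maturation factors, which make hydrogen peroxide at the apical surface, DUOXA2 was at 220.2, 149, 194 and 116 CPM against 7.65, 15.3, 23.3 and 40.1 CPM. DUOX2, its oxidase, was at 49, 39, 51.1 and 53.4 CPM against 2.28, 6.11, 12.6 and 29.3 CPM, whereas DUOX1 and DUOXA1 had medians of -0.53 and -0.59, within 2-fold of the other WT cells. Secreted antimicrobial genes had 7 of 18 compared and PGLYRP1, a peptidoglycan-binding protein, higher on all days at 4.12, 42.5, 64.1 and 32.9 CPM against 1.47, 3.25, 7.11 and 14.9 CPM. Against centroacinar cells none of 7 compared was higher past 2-fold on day 5, 7 and 9 and 1 was lower, with medians of 0.47, 1.06 and 0.05. PI3, the protease inhibitor elafin, fell within progenitors from 104 CPM on day 2 to 34.3 CPM on day 9. WFDC2, a secreted protein of the whey acidic family, was at 291, 4638, 4092 and 19728 CPM in progenitors and 103, 842, 495 and 10241 CPM in the others. Of secretoglobins and BPI fold proteins 1 of 4 compared was higher on all days (SCGB3A2) and 1 lower (BPIFB1). SCGB1A1, the club cell protein of airways, was at 73.6, 30.1, 26.4 and 21.9 CPM against 3.16, 4.81, 3.3 and 10.5 CPM, SCGB3A2 at 41.8, 30.9, 34.3 and 42.8 CPM against 8.16, 3.88, 4.05 and 18.8 CPM, and BPIFB1 had a median of -2.07. None of 4 compared secretoglobins and BPI fold proteins was past 2-fold against centroacinar cells on day 5, 7 and 9. Their medians were 0.58, 0.64 and -0.03.

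Basal epithelial genes were the list with the most members on the low side. Of 10 compared, 8 were lower on every day and none higher, and the list medians were -2.25, -2.86, -2.48 and -2.12. TP63, the factor that holds the basal state, was at 12.2, 1.24, 4.47 and 1.07 CPM in progenitors and 97.8, 73.3, 80.6 and 35 CPM in the others. COL17A1, a hemidesmosome collagen, was at 22.9, 10.7, 15.6 and 14.5 CPM against 164, 206, 222 and 148 CPM, and DST, a hemidesmosome linker, at 78.8, 40.2, 53.6 and 37.7 CPM against 446, 529, 508 and 363 CPM. Compared with centroacinar cells, 5 of 10 basal genes were lower past 2-fold on day 5, 7 and 9 and none higher. The list medians there were -1.29, -1.85 and -1.10. Of the study's 6 ductal markers, KRT5, ADIRF and CAPG were lower on all 4 days and S100A10 on 3. ADIRF was at 991, 150.3, 283 and 279 CPM against 2049.7, 2047, 1926 and 1640.3 CPM. Simple keratins, which mark gland and duct, had no member past 2-fold on all days, with KRT8 at a median of 0.59 and KRT7 at -0.92.

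Notch pathway genes had 9 of 16 compared, of which 4 were lower on all 4 days and none higher. The 4 were the ligands DLL1, JAG1 and JAG2 and the glycosyltransferase LFNG, which tunes Notch receptors. JAG1 was at 25.6, 34.8, 40.6 and 49.8 CPM in progenitors and 68.8, 143, 150.0 and 143 CPM in the other WT cells, and JAG2 at 3.53, 1.53, 1.63 and 1.28 CPM against 34.9, 41.6, 37.6 and 18.6 CPM. DLL1 had a median of -2.87 and LFNG of -3.03. HES1, the Notch target that keeps progenitors from differentiating, was lower in progenitors as well, at 299.8, 303, 453 and 812 CPM against 1054, 843, 1094 and 1131 CPM, and its difference was -1.81, -1.47, -1.27 and -0.48. Progenitors thus had the lower level of these ligands than all other WT cells on all days, and of HES1 by over 2-fold until day 7. Against centroacinar cells 1 of 10 compared genes of the list, JAG2, was lower past 2-fold on day 5, 7 and 9 (-1.60, -2.60 and -1.48), and JAG1 was at -1.37, -1.51 and -0.85, DLL1 at -0.92, -2.10 and -0.72 and LFNG at -1.25, -1.84 and -0.79. The median HES1 difference was within 2-fold against centroacinar cells (-0.78) and against the SOX2-high other WT cells (-0.40).

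Cell cycle genes in progenitors were well below the other WT cells until day 7, and the gap was much smaller on day 9. The study's proliferation markers summed to 5.36, 1.05, 1.25 and 0.853 CPM in progenitors and to 87.5, 77.6, 34.2 and 1.34 CPM in the other WT cells. The others included 690, 199, 70 and 2 cells of classes the authors named proliferating, and without those the sums were 13.5, 17.6, 8.18 and 1.00 CPM. Most of the gap in this sum on day 2, 5 and 7 was thus in cells of those classes. Medians of G2/M genes were -3.16, -3.88, -2.72 and -0.19, with TOP2A, a topoisomerase of dividing cells, at 2.29, 0.763, 0.544 and 0.427 CPM against 55.5, 57.1, 20.2 and 1.06 CPM and MKI67, the antigen used to stain dividing cells, at 1.44, 0.238, 0.0418 and 0.213 CPM against 32.7, 27.8, 9.98 and 0.354 CPM. S phase genes had medians of -2.51, -2.70, -2.13 and -0.55, and RRM2, which makes deoxynucleotides, and UHRF1, which maintains DNA methylation at replication, were lower on all days. On day 9 the levels of the other WT cells were low as well, as the sums above show. Against centroacinar cells on day 5, 7 and 9, the 2 G2/M genes compared had medians of 0.18, 0.05 and 0.06. The 4 S phase genes compared had -0.49, -0.72 and -0.10. None of these genes was past 2-fold on all of those days.

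Retinoid handling genes had 10 of 21 compared and 1 lower on all days. That was CRABP2, which carries retinoic acid to the nucleus, at 4.9, 19.6, 23.6 and 53.9 CPM in progenitors against 13.2, 387, 367 and 449.5 CPM. DHRS3, a retinal reductase, had a median of -1.28 and RDH10, a retinol dehydrogenase, of 0.98. Of KLF and multipotency factors 1 of 10 compared was lower, KLF7 (-2.13), with KLF4 at 1.59 and MYC at -1.38. Of the BCL2 family and apoptosis inhibitors, 1 of 17 compared was higher and 1 lower on all days. The first was BCL2L15, a less studied family member, at 54.6, 57.1, 56.2 and 37.7 CPM against 6.73, 8.34, 8.79 and 13.4 CPM, and the second BCL2L11, the cell-death activator BIM, at 10.7, 13.4, 12.1 and 12.4 CPM against 22.8, 58.8, 45.9 and 53.1 CPM. BIRC5, an inhibitor of apoptosis made in dividing cells, had a median of -3.14, and BIK, another death activator, 1.73.

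Of 16 pancreatic progenitor transcription factors, 7 were compared, and PAX6 and FOXA2 were lower on all days. PAX6, a factor of endocrine cells, was at 3.4, 1.95, 2.59 and 3.48 CPM in progenitors and 22.3, 85.5, 60.2 and 33.5 CPM in the others. FOXA2, a factor of endoderm, was at 1.31, 0.524, 1.21 and 1.14 CPM against 9.73, 15.1, 14.5 and 12.8 CPM, and GATA6 had a median of -0.88. SOX2 was at 104, 125, 97.5 and 125 CPM against 116, 53.9, 58.6 and 81.5 CPM, and SOX9, a factor of duct and progenitor cells, at 3.79, 7.2, 7.23 and 5.9 CPM against 3.54, 6.48, 8.86 and 11.8 CPM. Compared with centroacinar cells, 1 of 5 factors of the list was lower past 2-fold on day 5, 7 and 9 and none higher. PDX1, the factor that sets up the pancreas, had no UMI in any progenitor, which allows up to 0.196, 0.143, 0.125 and 0.213 CPM on the 4 days. Its median difference was 0 against all other WT cells, centroacinar cells and ductal cells alike, so this is not particular to the class. Of the endocrine genes ISL1 alone was compared (-1.89), and of digestive enzyme and acinar genes NR5A2, a nuclear receptor of acinar cells, was lower at 0.458, 0, 0.544 and 0.853 CPM against 8.75, 29.1, 27.4 and 20.9 CPM. The study's 7 acinar markers had no member past 2-fold on all days, and the largest median was that of NUPR1, a stress factor, at 0.80.

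Ion and water transport genes of duct had 12 of 26 compared, with 1 lower on all days. That was KCNN4, a calcium-gated potassium channel, at 20.8, 5.53, 9.78 and 7.39 CPM against 88, 56.1, 66.8 and 38.6 CPM. SCNN1A, a subunit of the epithelial sodium channel, had a median of 2.81, KCNE3, a potassium channel subunit, 1.39, and AQP3, a basolateral water channel, -1.23. None of 12 compared genes of the list was past 2-fold against centroacinar cells on day 5, 7 and 9. The list medians there were -0.02, -0.005 and -0.23. CFTR was at 9.68, 18.5, 17.5 and 24.6 CPM in progenitors and 6.09, 16.5, 15.2 and 30.4 CPM in the other WT cells. Its ratio was 1.59 (95% interval 1.32 to 1.9) on day 2 and 0.808 (95% interval 0.72 to 0.906) on day 9. Its median difference over the 4 days was 0.17, and it was -0.32 against the SOX2-high other WT cells, so its direction depended on the cells compared with. Against centroacinar cells the CFTR ratio was below 1 on each day, at 0.506 (95% interval 0.442 to 0.58) on day 5, 0.757 (95% interval 0.654 to 0.876) on day 7 and 0.69 (95% interval 0.611 to 0.777) on day 9.

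The stress and signalling lists had few members past 2-fold on all days. Of NF-kB response genes 2 of 15 compared were higher, the cytokine CSF3, at 79.7, 72.1, 81.9 and 57 CPM against 19.7, 5.81, 9.62 and 22.2 CPM, and the chemokine CXCL8, at 6.73, 12.2, 12.1 and 21 CPM against 0.816, 1.77, 1.05 and 9.43 CPM. ER folding and amino acid stress genes had 1 of 19 lower (DDIT4, -2.10), with SLC7A11, the cystine importer, at 2.23. Glycolysis and hypoxia genes had 2 of 14 lower, ADM (-2.34) and VEGFA (-1.71). Interferon-stimulated genes had 1 of 10 lower (IFIT2, -1.45), and none of 15 immediate early genes or of 6 squamous barrier genes was past 2-fold on all days. Against centroacinar cells, none of 15 compared NF-kB response genes was past 2-fold on day 5, 7 and 9, with medians of -0.12, 0.42 and -0.05. Nor was any of 18 compared ER folding and amino acid stress genes, 13 glycolysis and hypoxia genes or 8 interferon-stimulated genes. Among 4 compared centroacinar markers besides S100A4, PROM1, a membrane protein of stem and luminal cells, was at 302, 496, 595 and 573 CPM in progenitors against 24.4, 35.1, 64.7 and 297 CPM. Its ratio to centroacinar cells was 2.64, 2.60 and 1.03 on day 5, 7 and 9. The list was split, with S100A6 at a median of 1.03 and KRT7 at -0.92 against the other WT cells. S100A4 alone of the 5 compared was past 2-fold on all 4 days.

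Markers of other cell types were low in progenitors. The 10 ciliated cell markers summed to between 0.196 and 0.715 CPM in progenitors on the 4 days, the 6 ionocyte and tuft cell markers in the files to between 0.0654 and 0.238 CPM, and the 7 endothelial markers to between 0 and 0.251 CPM. Fibroblast and stellate cell markers summed to 7.65, 8.44, 9.62 and 7.75 CPM against 1.49, 2.9, 2.78 and 5.4 CPM in the other WT cells, and immune markers to 8.5, 14.1, 13 and 18.1 CPM against 4.04, 4.82, 5.15 and 9.86 CPM. Both sums were higher in progenitors. The first was nearly all PDGFRA, a growth factor receptor (7.65, 8.34, 9.62 and 7.61 CPM), with the collagens COL1A1, COL1A2 and COL3A1 at 0 on each day. The second was mostly CD68, a lysosomal protein (6.73, 10.5, 10.8 and 16.1 CPM), with PTPRC, CD3E, CD79A and CSF1R at 0 on each day. Smooth muscle and mesenchymal genes summed to 12.6, 39.9, 30.5 and 51.5 CPM in progenitors and to 18.1, 1389, 700.3 and 942 CPM in the other WT cells, with CALD1 at 0.785, 11, 8.78 and 10.2 CPM against 2.47, 704, 371 and 377 CPM. The mesenchymal sum was thus far lower in progenitors from day 5 on and closer on day 2, and 4 of its 8 genes were compared, none past 2-fold on all days.

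**Figure D3:**
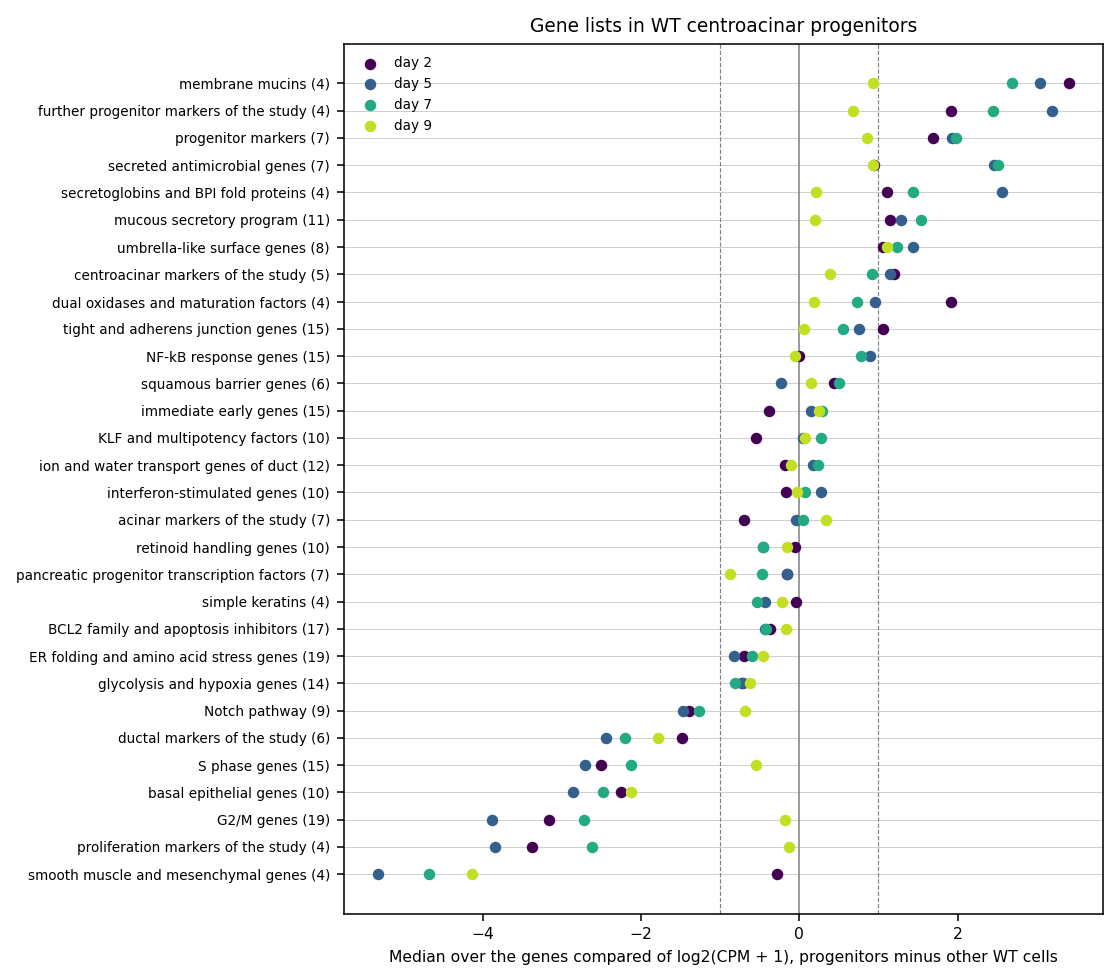
Median over the compared genes of each list (y axis, number compared in brackets) of the log2 difference in CPM plus 1 between progenitors and the other WT cells (x axis), 1 point for each day. Dashed lines mark 2-fold. Membrane mucins, all progenitor markers of the study where compared, lie highest on day 2 and 7. Mesenchymal genes lie lowest from day 5 on. Lists with fewer than 4 compared genes are not drawn. Of all 35 lists with a compared gene, drawn or not, 30 lie nearer 0 on day 9 than on day 5.

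Within the class, each cluster was set against the other 7 together, again as a description since the clusters were made from these genes. Cluster 1 (1072 cells) had 19 of 7312 genes at least 2-fold higher (0.26%) and 46 lower (0.629%). Its leading gene, LOC101676065, was at 1028 CPM against 310.5 CPM in the other clusters, and it was higher by over 2-fold on day 5, 7 and 9 when compared within the library. S100A4 was at 695 CPM against 289 CPM, but within libraries it was past 2-fold on 1 of the 3 days. TM4SF5, a tetraspanin-like membrane protein, LOC101693702 and LOC101677064 completed the 5. Of these, TM4SF5 was past 2-fold within libraries on 2 of the 3 days, and LOC101693702 and LOC101677064 on all 3. MUC1 and MUC13 had their highest levels of the 8 clusters here, at 2249 and 365 CPM, although MUC13 was nearly level with cluster 18 (363 CPM). Cluster 10 (761 cells) had 42 of 7341 genes lower (0.572%) and 2 higher (0.0272%), LOC101671124 and COL28A1, a collagen, at 1.05 and 1.02 on the log2 scale. Within libraries LOC101671124 was past 2-fold on 1 of 3 days, at 1.14, 0.68 and 0.52 on day 5, 7 and 9.

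Cluster 13 (693 cells, 98.4% of them from day 2) had 109 of 7416 genes higher (1.47%) and 218 lower (2.94%). It was led by S100A9, a calcium-binding protein of inflamed epithelia, at 525 CPM against 63.9 CPM. GPX2, a glutathione peroxidase, was at 725 CPM against 161 CPM and NQO1, a quinone reductase, at 69.5 CPM against 17.4 CPM. FDPS, a step of cholesterol synthesis, was at 218 CPM against 58.4 CPM, and ADIRF, a ductal marker of the study, at 995 CPM against 238 CPM. Cluster and day cannot be told apart for these genes, because day 2 held no other progenitor cluster of 50 cells.

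Cluster 18 (579 cells) had 53 of 7322 genes higher (0.724%) and 64 lower (0.874%), and its 5 leading genes are products of mucus and host defence. MUC5B was at 384 CPM against 17.6 CPM in the other clusters, a ratio of 21.8 (95% interval 20.4 to 23.3). CLCA1 was at 148 CPM against 9.14 CPM, TFF3 at 1330.5 CPM against 128 CPM, PGLYRP1 at 186 CPM against 19.7 CPM and MUC5AC at 259 CPM against 28.2 CPM. All 5 were past 2-fold within each of the 3 libraries with enough cells. A MUC5B UMI was seen in 69.8% of its cells. SPDEF was at 116 CPM here and at 29.8, 33.7, 30.1, 16, 2.88, 57.7 and 28.7 CPM in clusters 1, 10, 13, 21, 24, 32 and 40, so SPDEF too was highest in this cluster. KLF4 (112 CPM) and PROM1 (884 CPM) were also high here, whereas DUOXA2 was at 34.1 CPM, its lowest level of the 8.

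Cluster 21 (507 cells, 82.4% of them from day 9) had 57 of 7439 genes higher (0.766%) and 31 lower (0.417%). CD74, the invariant chain of MHC class II, was at 623 CPM against 32.7 CPM and was seen in 86.4% of the cells. The other 4 leading genes were protein-coding loci without a given name, LOC101670362 at 230.4 CPM against 6.16 CPM, LOC101684722 at 80.5 against 0.675 CPM, LOC101682907 at 78.5 against 2.08 CPM and LOC101683501 at 60.0 against 0.63 CPM. The 5 were past 2-fold on both days that could be compared, day 5 and 9, so the difference was also present outside the day 9 library. WFDC2 was at 20758 CPM here, the highest of the 8 clusters, and PSCA at 388 CPM.

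Cluster 24 (382 cells, 71.7% of them from day 7) had 79 of 7451 genes higher (1.06%) and 140 lower (1.88%). IGFBP3, which binds insulin-like growth factors, was at 650.3 CPM against 98.9 CPM. AQP4, a water channel, was at 121 CPM against 19.7 CPM, PTHLH, the parathyroid hormone-like hormone, at 57.5 against 9.42 CPM and TGFBI, a matrix protein induced by TGF-beta, at 105 against 19.6 CPM. LOC123390887 completed the 5, and all were past 2-fold within day 5 and within day 7. Of the 7 markers of the class, MUC1 had its lowest level of the 8 clusters here, at 948 CPM, and LYPD2 was also lowest here, at 152 CPM.

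Cluster 32 (169 cells on 4 days) had 83 of 7435 genes higher (1.12%) and 108 lower (1.45%). ALDH1A3, another retinal dehydrogenase, was at 111 CPM against 0.773 CPM, a ratio of 143 (95% interval 107 to 194), and was seen in 59.2% of the cells. ALDH1A1 was at 308 CPM in the same cluster, its lowest level of the 8. CROT, a peroxisomal carnitine transferase, was at 88.2 against 0.45 CPM, and HSPB1, a small heat shock protein, at 793 against 20.3 CPM. TFF3 was at 1342 CPM, as high as in cluster 18, while MUC5B was at 25.9 CPM, so TFF3 and the gel-forming mucins did not go together here. ALDH1A3, CROT, HSPB1 and the noncoding LOC101679792 were past 2-fold within day 7 and within day 9. SCGB3A1, by sum the leading gene at 161 CPM against 0.407 CPM, had all of its 495 UMIs in 1 cell and was lower than in the other clusters on both days compared. KRT15, a ductal marker of the study, was at 149 CPM here and at no more than 22.0 CPM in the other 7 clusters.

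Cluster 40 (29 cells) had 237 of 7530 genes higher (3.15%) and 747 lower (9.92%), the most of the 8 in both directions. TFF1 was at 305 CPM against 1.32 CPM, TFF2 at 241 against 3.05 CPM and GUCA2A, the peptide guanylin that stimulates fluid secretion, at 752 against 17.6 CPM. TAGLN, an actin-binding protein of smooth muscle, was at 142 against 2.1 CPM and ECRG4 at 86.6 against 1.63 CPM. Of the TFF1 UMIs of the cluster 16.6% lay in 1 cell, and of those of GUCA2A 21.4%. TAGLN and ECRG4 were among the genes lowest in progenitors against centroacinar cells, and KRT5 (106 CPM) and PAX6 (17.7 CPM) had their highest levels of the 8 clusters here. These cells also had about 3 times the UMIs of their libraries' medians, and the part of that in these levels was not tested. Leaving them out changed the 4-day counts of the class from 102 higher and 401 lower genes to 105 and 409.

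Some genes were level across the clusters. SOX2 lay between 71 and 138 CPM in all 8. TSPAN8 lay between 84.3 and 147 CPM and BCL2A1 between 87.2 and 131 CPM. HES1 ran from 291 CPM in cluster 1 to 817 CPM in cluster 40, CFTR from 9.41 CPM in cluster 13 to 40.9 CPM in cluster 32, and SOX9 from 3.41 to 11.2 CPM. PDX1 had no UMI in any of them. MUC13 and TFF3 were the least even of the markers, with MUC13 at 93.2 CPM in cluster 13 and TFF3 at 1.4 CPM there.

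**Figure D4:**
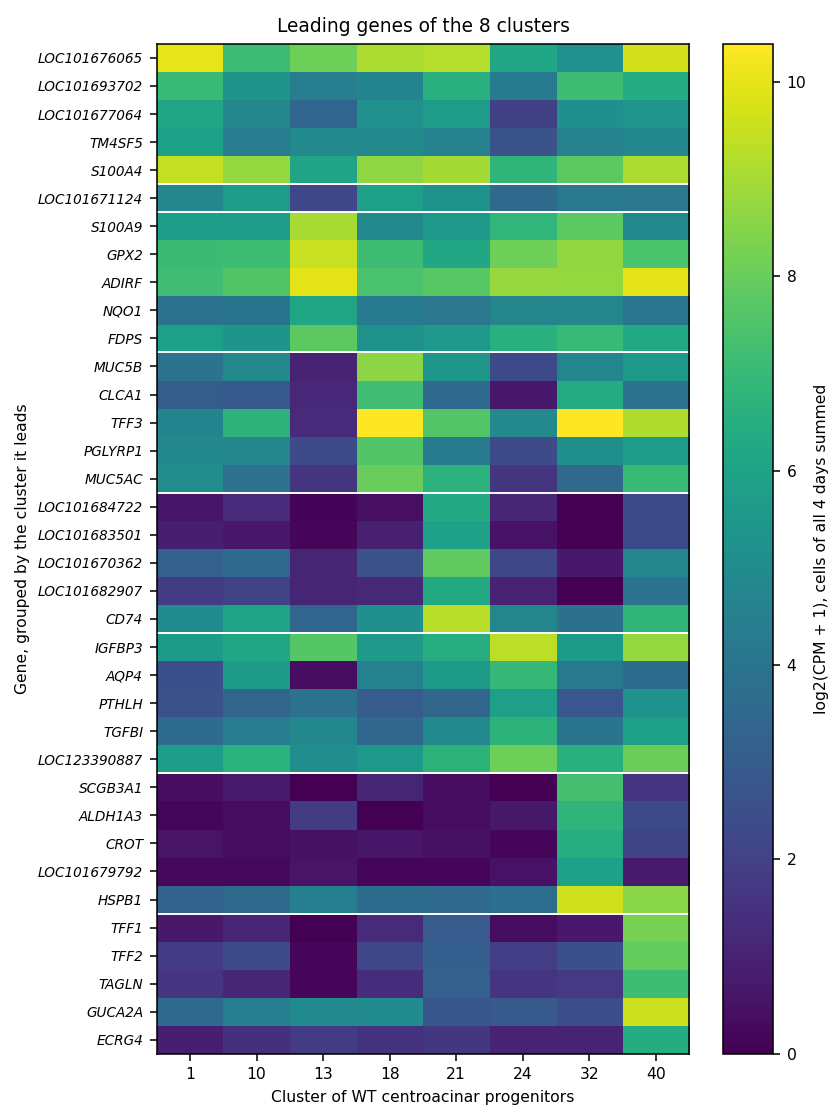
Level as log2 of CPM plus 1 (colour) of the up to 5 leading genes of each cluster (rows) in the 8 clusters of WT centroacinar progenitors (columns), over all 4 days. Genes are brightest in the cluster they lead, apart from TFF3 and LOC101693702, which are as bright in cluster 32, LOC101671124 in cluster 18 and ADIRF in cluster 40.

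Between day 2 and day 9, 7503 genes reached 10 CPM in progenitors on 1 of the days. Of these 367 (4.89%) were at least 2-fold higher on day 9 and 180 (2.4%) lower, with a median difference of 0.07 over all of them. The comparison is between 2 libraries and, given the cluster makeup, between cluster 13 and the later clusters. Step by step, 226 genes were higher and 106 lower on day 5 than on day 2, 13 and 7 on day 7 than on day 5, and 77 and 10 on day 9 than on day 7, so the first step was the widest.

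Of the 10 largest rises, TFF3 rose by 8.39 on the log2 scale (7.72 in the other WT cells) and WFDC2 by 6.08 (6.62). MUC5B rose by 5.72 and MUC5AC by 5.63, against 5.52 and 6.93 in the other cells. AQP4 went from 0.327 to 54.7 CPM, CD74 from 7.06 to 308 CPM and CLCA1 from 1.24 to 66 CPM. PIGR, the receptor that carries immunoglobulin A across epithelia, went from 1.24 to 61.1 CPM. LOC101670362 and LOC101690256 completed the 10, and each of the 10 also differed by over 2-fold in the same direction in the other WT cells.

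The largest falls were S100A9, from 535 to 38.9 CPM, and GPX2, from 733 to 87.7 CPM. FDPS was at 220.2 and 45.1 CPM and FDFT1, the squalene synthase, at 55.8 and 12.3 CPM. FDFT1 differed by -0.34 in the other WT cells, against -2.10 in progenitors. RSPH4A, a radial spoke protein of motile cilia, went from 123 to 27.1 CPM and was above the other WT cells on every day, although the ciliated cell markers were near 0. NQO1 (-2.20), FERMT1 (-2.18), an integrin activator, KRT5 (-2.07), PRXL2A (-1.95) and DUOX1 (-1.94) were the others.

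Several markers of the class were flat over the same days. BCL2A1 differed by -0.04 between day 2 and day 9, ALDH1A1 by 0.10, MUC1 by 0.15 and TSPAN8 by 0.20. KLF4 differed by -0.35 and MUC13 by 1.73. In the other WT cells ALDH1A1 differed by 1.19, MUC1 by 2.26 and MUC13 by 4.73, so the narrowing of the class difference on day 9 came with higher levels in the pooled other WT cells. Their makeup moved as well, from 29 to 2361 centroacinar cells, and in ductal cells alone ALDH1A1 was at 129 and 135 CPM and MUC13 at 4.41 and 4.68 CPM on day 2 and 9. MUC1 went from 248 to 448 CPM in ductal cells. In centroacinar cells ALDH1A1 went from 260.2 to 411 CPM, MUC1 from 1040.1 to 1643 CPM and MUC13 from 124 to 247 CPM between day 5 and day 9. Levels of these genes were thus also higher within centroacinar cells, whereas in ductal cells ALDH1A1 and MUC13 were nearly flat.

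To hold the cluster fixed, day 9 was set against day 5 within clusters 1, 10, 18 and 21, which had at least 50 cells on both days. Of 8135 genes, 15 (0.184%) were at least 2-fold higher in each of the 4 clusters and 1 (0.0123%), RIN3, lower. HES1 was among the 15. It went from 235 to 510 CPM in cluster 1, from 353 to 916 CPM in cluster 10, from 319 to 853 CPM in cluster 18 and from 346 to 826 CPM in cluster 21, while the other WT cells went from 843 to 1131 CPM. The day 7 values of clusters 1, 10 and 18 lay between, at 314, 466 and 396 CPM. Within the other classes HES1 was also higher on day 9 than on day 5. It went from 523 to 892 CPM in centroacinar cells and from 892 to 1394 CPM in ductal cells. HES1 in progenitors thus came nearer to the pooled other WT cells, whose makeup moved, in 4 clusters that share the same libraries.

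WFDC2 was higher on day 9 in the 4 clusters by 1.58, 1.80, 2.32 and 1.70, PIGR by 1.57, 1.91, 1.15 and 1.78 and TFF3 by 2.97, 2.60, 2.84 and 1.21. TFF2 was also among the 15, at no more than 10.5 CPM in these clusters. The rest were ATP8 and ND4L, which are mitochondrial genes, NMT1, SELENOK, MRPL30, LOC101682432, the noncoding ATP5ME entry and LOC123388741, LOC123389210 and LOC123388620, which are loci of small nuclear, small nucleolar and ribosomal RNA. For ATP8, ND4L, NMT1 and ATP5ME the other WT cells had about the same levels on day 9 as progenitors, with ATP8 at 115 and 115 CPM and NMT1 at 156 and 149 CPM. Levels of these 4 genes in the day 9 library were thus alike inside and outside the class, and TFF3 and WFDC2 were higher on day 9 in the other WT cells as well. KLF4, by contrast, differed by -0.01, -0.05, -0.20 and -0.21 within the 4 clusters, ALDH1A1 by 0.42, 0.19, 0.28 and 0.21 and MUC1 by 0.10, -0.18, -0.20 and 0.12.

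**Figure D5:**
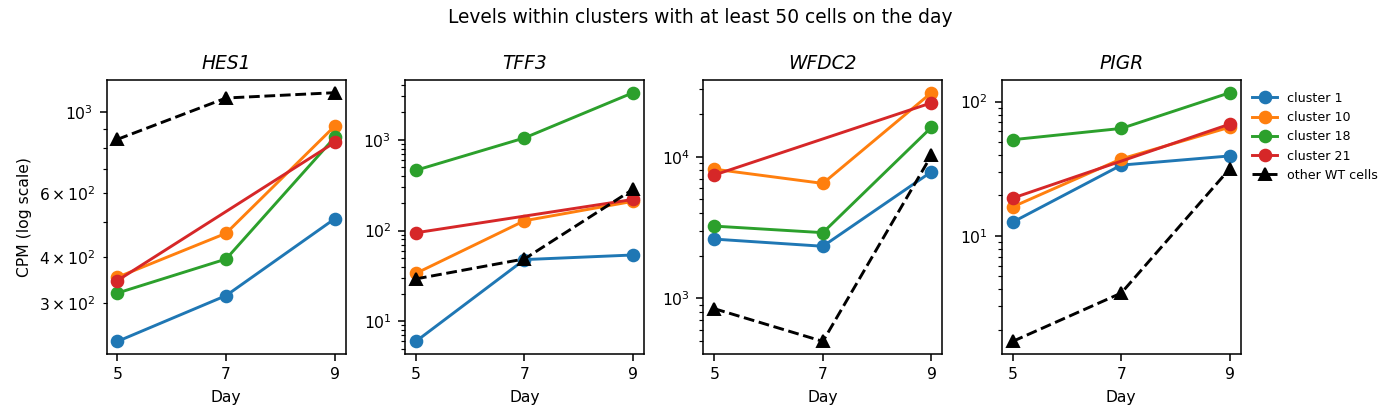
Level in CPM on a log scale (y axis, a range of its own in each panel) by day (x axis) of HES1, TFF3, WFDC2 and PIGR in clusters 1, 10, 18 and 21, at each day with at least 50 cells of the cluster, and in the other WT cells (dashed). Each point is 1 library. All 4 genes are higher on day 9 than on day 5 in every cluster shown, and HES1 in the clusters remains below the other WT cells.

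The CF cultures held 1736 cells of the same class name, in clusters of their own that were named separately, so the values are only set side by side. PDX1 was at 4.71, 6.09, 5.77 and 7.04 CPM in CF progenitors on day 2, 5, 7 and 9 and had no UMI in WT progenitors. SOX2 was at 0.0673, 0.0615, 0 and 0 CPM, against 104, 125, 97.5 and 125 CPM in WT progenitors. HES1 was at 182, 444, 403 and 372 CPM in CF and 299.8, 303, 453 and 812 CPM in WT progenitors. Of the markers, TSPAN8 was at 215, 152, 171 and 193 CPM in CF progenitors, MUC13 at 17.2, 28.5, 37.1 and 50.7 CPM, KLF4 at 36, 19.6, 24.8 and 26.3 CPM and ALDH1A1 at 231, 209.8, 222 and 177 CPM. In these libraries MUC13, KLF4 and ALDH1A1 were lower and TSPAN8 higher in CF than in WT progenitors on each day, and animal, culture and library cannot be told apart from genotype.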

How the data were processed

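Single-cell RNA libraries of WT cultures on day 2, 5, 7 and 9 were analysed, with 4 CF libraries for side-by-side values. Per the submitters' processing notes, Cell Ranger 5.0.1, R 4.1.2 and Seurat were used. The authors deposited UMI counts per gene and cell, and a cell table with cluster, class and the percent of mitochondrial UMIs; they had filtered cells and removed called doublets, so no doublet caller was run. They named clusters by correlation with published references. The lowest number of genes in a retained WT cell was 504 and the highest mitochondrial share 20.0%.

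Counts were summed over cells of a class or cluster per library and divided by the summed UMIs (CPM), and differences were log2 of CPM plus 1, which understates the change of low genes. Days had 1 library each, and the classes had been made from the same genes, so no test was run and no p-value computed. A gene was compared if it reached 10 CPM in a group compared, and it was called past 2-fold, in every day where several were used. Intervals are exact 95% binomial or conditional binomial intervals and cover counting error only, and a count of 0 allows up to 3 counts. For shares of cells with a UMI each cell was thinned to 3000 UMIs. Values for a cluster on a single day, and centroacinar values by day, were used with at least 50 cells, whereas each cluster was compared over all days whatever its size. Of 27912 genes, 27467 matched the annotation table.

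The members and gene lists were chosen with earlier results of these data known. Named genes were the 7 markers, CFTR, PDX1, SOX2, SOX9 and HES1, up to 4 genes of each list by absolute median difference, the 10 highest and 10 lowest genes against the other WT cells among those past 2-fold on every day, the 10 largest rises and falls from day 2 to day 9, and up to 5 per cluster, with at least 50 CPM in a group. Other genes are named as members of short lists or because their values were seen, and some genes that the rule names are not reported here. Alternatives were another pseudocount, TMM (edgeR 4.0.16) and DESeq2 size factors, computed here, other filters, cell sets, and each day left out. Python 3.11.15, numpy 2.4.6, scipy 1.17.1 and R 4.3.3 were used, and the scripts were tested on simulated data.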

Additional observations from a re-analysis of the deposited data

How the results depend on the processing

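Counting only clusters with a progenitor marker among their leading genes, the class share was 0.289%, 8.49%, 15.6% and 5.85% on day 2, 5, 7 and 9, and without cluster 1 it was 11.4%, 11.1%, 22.6% and 14.2%, which puts day 5 below day 2. Genes 2-fold higher and lower than the other WT cells on all days numbered 60 and 209 with a pseudocount of 5 CPM, 172 and 323 with TMM and 175 and 322 with DESeq2 size factors. At 50 CPM or more 166 were lower. They numbered 12 and 135 against centroacinar cells, and 322 were higher than in ductal cells. Leaving out each day gave 100 to 350 higher and 396 to 643 lower, and both upper ends were without day 9. Against SOX2-high cells 38 were higher. Day 9 against day 2 gave 607 higher and 315 lower genes with no filter and 175 and 88 at 50 CPM. At 50 CPM clusters 1, 10, 13, 18, 21, 24, 32 and 40 had 10, 1, 48, 29, 24, 32, 33 and 88 higher genes, and a pseudocount of 5 CPM left 0 in cluster 10 and 53 in cluster 32. Higher filters test fewer genes by construction, and the cause of the other shifts was not tested. No value past 2-fold changed sign. Of the smaller ones, the class difference of CFTR went from 0.17 to -0.52 against centroacinar cells and -0.32 against SOX2-high cells, that of SOX2 from 0.67 to -0.11 against SOX2-high cells, and that of SOX9 from -0.09 to 0.07 with TMM or DESeq2 and 0.08 without day 7 or day 9. The day 9 minus day 2 value of ALDH1A1 went from 0.10 to just below 0 with DESeq2. For single named genes 728 values kept their side and sign, the 8 above changed sign, 7 fell below 2-fold and 1 passed it. The alternatives without cluster 1 or 40, against SOX2-high cells, within clusters and without the proliferating classes were chosen after seeing the data. Between days, no paired analysis was possible because the labels give no replicate numbers and each day is 1 library. Progenitors and other WT cells were compared within each library, without a test, since the classes were made from the same genes.

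Levels rest on 1 library per day of pooled donors, so differences between days cannot be told apart from differences between libraries or cultures. Intervals cover counting error only, and levels near 3 counts are not resolved.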
